A study of Homo sapiens with 6 samples.

Results

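ARP1 and OCI-MY5 are human cell lines grown from multiple myeloma, the cancer of plasma cells, the B cells that secrete antibody. This account sets the 2 arrays of ARP1 against the 2 arrays of OCI-MY5, chosen by the line named in the sample labels, out of 6 arrays in the series. The other 2 arrays are of OPM2, a further myeloma line, and were left out. Each line had been sorted by flow cytometry into cells with and without CD24, a small glycosylated surface protein, and each fraction gave 1 array. The submitters describe the CD24+ fractions as cancer stem cells, and their own comparison is CD24+ against CD24−. All 4 samples were untreated cultures in serum-containing medium, and no genetic change was made to any of them. Cell line is the factor compared here, the CD24 fraction is a term in the fit, and the 2 sorted fractions of each line stand in as its replicates. No label names repeated cultures, and a fraction effect shared by both lines is taken out by the fit. The p-values therefore rest on how far the line difference varied between the 2 fractions, biological and technical together. In limma, the test used, each gene's variance is also shrunk towards a value drawn from all genes. That value weighed 2.85 degrees of freedom, against 1 for the gene itself. The number of arrays, 2 per line, limits the precision of every value below.

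A myeloma cell keeps much of the plasma cell programme: immunoglobulin secretion, a large endoplasmic reticulum, and the surface proteins BCMA and GPRC5D that antibody and cell therapies bind. Myeloma lines differ in the oncogenes turned on by chromosome translocation, in copy number and in signalling. Immediate early genes such as FOS, JUN and EGR1 code for transcription factors that are switched on within minutes of a growth or stress signal; FOS and JUN proteins pair to form AP-1. Interferon-stimulated genes and NF-κB targets answer antiviral and inflammatory signals, and NRF2 targets such as NQO1 and GCLM answer oxidative stress.

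The arrays were Affymetrix Human Genome U133 Plus 2.0, and the values are MAS5 intensities, a linear brightness per probe set that the authors scaled to a common trimmed mean. Median intensity over all probe sets was 84.2 and 76.3 on the CD24+ and CD24− arrays of ARP1 and 75.04 and 69.0 on those of OCI-MY5. In what follows, 4 intensities are always given in the order ARP1 CD24+, ARP1 CD24−, OCI-MY5 CD24+, OCI-MY5 CD24−. Differences are ARP1 minus OCI-MY5 in log2(intensity + 16), a scale that understates the difference of dim genes. TrpnX, a bacterial control transcript, had signals up to 64.5 on these arrays. Where a gene lay under that level on both arrays of one line, the fold is given as a lower bound against 64.5.

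Both lines carried the plasma cell markers, while a few genes listed as markers of other cells were brighter in ARP1. The 10 plasma cell markers, among them SDC1, CD38, PRDM1, IRF4, XBP1 and JCHAIN, were all above the TrpnX range. MAF, a translocation oncogene of myeloma, was bright in both lines, with intensities of 7032, 9064, 9341 and 9833, and so was CCND2, a D cyclin, with 19168, 18742, 23543 and 27575. Of 5 markers of T and NK cells, CD3D, CD3E, CD3G and NKG7 read 105 or less on every array. The fifth, GNLY, was among the genes most different between the lines and is described below. On the longer T and NK cell list 5 genes were tested. Without overlap 3 were higher in ARP1 and 1 in OCI-MY5, against 34.1% and 30.2% of all genes. The 3 were GNLY, ZAP70 and PRF1. ZAP70, a kinase of T cell receptor signalling, read 277, 384, 6.91 and 94.3, and PRF1, perforin, read 175, 195, 126 and 119. GNLY alone of these was called. The summed level of 5 stromal markers was 322, 611, 655 and 560, and that of 5 myeloid markers 387, 263, 197 and 195. The longer myeloid list had 2 tested genes, both higher in ARP1 without overlap, against 34.1% of all genes, and not called. CST3, cystatin C, a secreted protease inhibitor, read 1304, 1132, 119 and 297. FCER1G read 141, 166, 138 and 107, a difference of only 0.30. The 4 epithelial markers summed to 425, 527, 527 and 547, and 3 B cell markers to 615, 391, 445 and 559. On the longer epithelial and endothelial list 5 genes were tested, 4 higher in ARP1 and 1 in OCI-MY5 without overlap. On the longer stromal list 3 were tested, and the counts were 1 and 1. None of these was called, and the shares of all genes without overlap were 34.1% and 30.2%. CD24 itself was too dim to be tested on its brightest probe set, with 7.16, 30.8, 72.8 and 53.8, and so gave no check of the sort.

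The RNA controls differed between the lines, and this stands beside every result below. ACTB and GAPDH have probe sets at the 5′ end, middle and 3′ end of their transcripts, and the 3′ over 5′ ratio grows as the labelled copies become shorter. For ACTB it was 2.63, 2.47, 9.36 and 23.2, and for GAPDH 1.27, 1.27, 2.34 and 5.16. Both OCI-MY5 arrays lay above both ARP1 arrays in all 4 ratios. For each of them the exact two-sided permutation p was 0.333, the smallest that 2 against 2 arrays can give. The 18S ribosomal control sets ran the other way, with geometric means of 9035, 11022, 5226 and 1478. The spike-ins for hybridisation were level, at 8501, 7396, 8972 and 8236. The poly-A spike-ins were not, with geometric means of 600, 512, 930 and 324. The part of RNA quality in the gene differences was not tested.

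**Figure D1:**
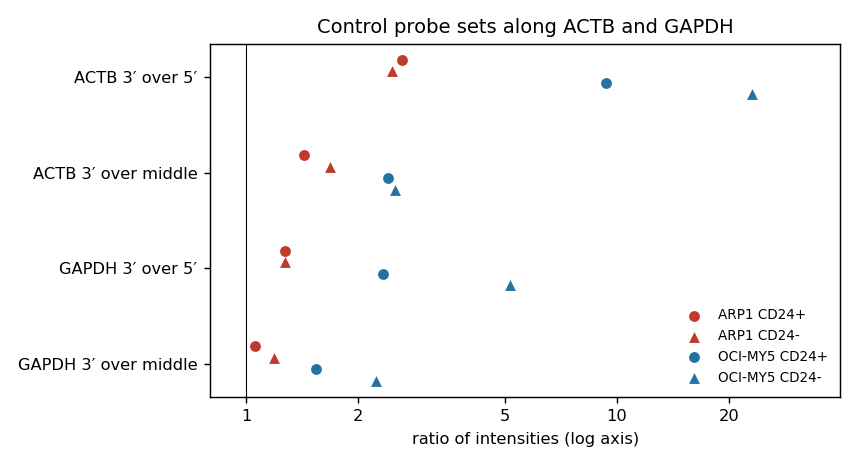
Ratios of 3′ to 5′ and 3′ to middle probe set intensities for ACTB and GAPDH (log axis), 1 point per array, circles for CD24+ and triangles for CD24−. Both OCI-MY5 arrays lie to the right of both ARP1 arrays in every row, and the OCI-MY5 CD24− array is the farthest, with 23.2 for ACTB 3′ over 5′.

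Of 12083 genes bright enough to be tested, 206 were called higher in ARP1 (1.7% of genes tested) and 88 higher in OCI-MY5 (0.728%). A call needed an adjusted p under 0.05 in limma, with Benjamini-Hochberg adjustment over all genes, and both arrays of one line above both of the other. In 56 of the called genes the lower line did not exceed the highest TrpnX signal, 64.5, on either array. At least 2-fold apart between the nearest arrays of the 2 lines were 469 genes higher in ARP1 (3.88%) and 226 higher in OCI-MY5 (1.87%), and 291 of these 695 were among the calls. Simply not overlapping were 4119 genes higher in ARP1 (34.1%) and 3645 higher in OCI-MY5 (30.2%). With 1 residual degree of freedom per gene, adjusted p-values were crowded. The lowest was 0.0148 and the 100th gene had 0.0461, while 1273 genes higher in ARP1 and 795 higher in OCI-MY5 fell under 0.10.

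The calls depended strongly on the arrays and the scaling used. Without either of the ARP1 arrays no gene was called, although 3003 and 3084 genes had an unadjusted p under 0.05; without the CD24+ or the CD24− array of OCI-MY5, 403 and 138 were. The 2-fold count higher in ARP1 was 961 and 780 without the CD24+ and CD24− arrays of OCI-MY5. The count higher in OCI-MY5 was 443 and 459 without those of ARP1. On the same probe set, leaving out an array can only keep or widen a gap, so higher 2-fold counts follow largely from the definition. Centring each array on its own median moved the median difference of all genes from 0.04 to −0.09. It left 2 of the 294 calls, though all 294 stayed without overlap in the same direction and under an adjusted p of 0.10. Of the 294, 291 were at least 2-fold apart as deposited, so a shift of this size could hardly turn their direction. The share of 2-fold separated genes that were higher in ARP1 was 67.5% as deposited, 58.6% after quantile normalization and 52.9% after centring. Of the calls the share was 70.1%, 68.3% and 50%, and of the non-overlapping genes 53.1%, 47.9% and 41.3%. The excess on the ARP1 side therefore moves with the scaling.

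**Figure D2:**
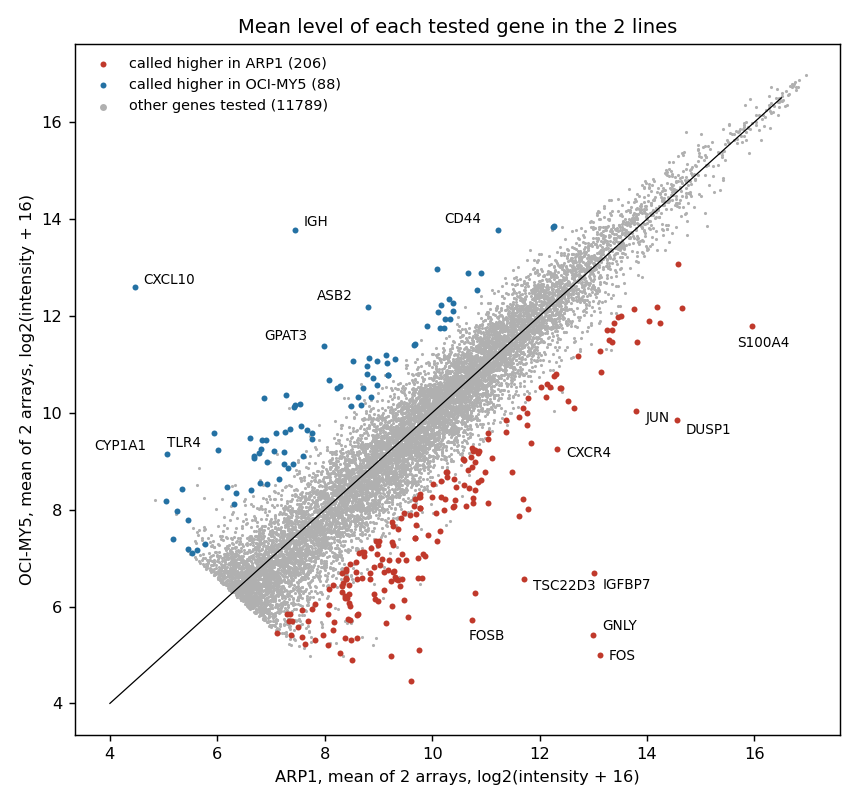
Mean of the 2 arrays of each line for the 12083 genes tested, in log2(intensity + 16); red, the 206 genes called higher in ARP1; blue, the 88 called higher in OCI-MY5; the line marks equal levels. Most genes lie near the line of equal levels, and FOS, GNLY and CXCL10 lie farthest from it.

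The widest gap in favour of ARP1 was in FOS, an immediate early gene and AP-1 subunit. It read 8407 and 9394 in the 2 fractions of ARP1 and 17.7 and 14.5 in those of OCI-MY5, so that it was within the TrpnX range in OCI-MY5. ARP1 was at least 138-fold higher (difference 8.12 ± 0.19, SE; adjusted p = 0.0148). Its paralog FOSB read 1727, 1684, 48.9 and 26.5, at least 26.4-fold higher in ARP1 (adjusted p = 0.0357). JUN, the usual partner of FOS in AP-1, was expressed in both lines and was higher in ARP1, with 12004, 16936, 1107 and 960.1 (difference 3.77 ± 0.25; adjusted p = 0.044). DUSP1, a phosphatase that switches off stress and growth kinases of the MAPK family, read 23170, 24889, 957 and 869 (difference 4.70 ± 0.18; adjusted p = 0.035). Only 1 of its 2 other bright probe sets separated the lines in the same direction, and the mean over its probe sets was 3.26. On the probe sets given, the lines overlapped in none of these 4 genes.

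Of the 23 tested genes on the list of immediate early and RAS-MAPK feedback genes, 7 were called higher in ARP1 and 1 in OCI-MY5. The shares of all genes called were 1.7% and 0.728%. The other called members in ARP1 were EGR1, a zinc finger factor, with 3079, 3935, 725 and 975, FOSL2, an AP-1 subunit, with 327, 325, 51.9 and 62.0, and JUND, another AP-1 subunit, with 9581, 10053, 3254 and 3384. Not all members stood this way. JUNB was near level, with 374, 428, 475 and 534, and the ERK feedback genes SPRY4 and ETV5 had differences of −0.73 and −0.74, neither of them called. DUSP5, a nuclear phosphatase of ERK, was the 1 called member higher in OCI-MY5, with 1093, 1054, 7346 and 8637 (difference −2.87 ± 0.18; adjusted p = 0.044). The list's median difference was 0.24, against 0.04 for all genes.

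The 250 bases upstream of FOS and DUSP1 are shown because FOS has the widest gap in ARP1 and DUSP1 is the called phosphatase beside it on the list. They come from RefSeq promoters of GRCh38.p14, at chr14:75278578-75278827 on the plus strand and chr5:172771196-172771445 on the minus strand, written 5′ to 3′. Capitals mark the cyclic AMP response element TGACGTCA, searched on both strands. DUSP1 holds 1 exact match, 125 to 118 bases before the start, and FOS holds no exact match in this window. Variants that differ in some bases, such as tgacgttt in the FOS window, were not searched for and are not marked. The exact element was found in 2.88% of the 9871 promoters of tested genes. It was found in 1.85% of the 162 of genes called higher in ARP1 and in 5.48% of the 73 of genes called higher in OCI-MY5. The AP-1 element TGANTCA was found in 3.77%, 4.32% and 6.85% of the same promoters. A match is a description of the sequence only.
FOS: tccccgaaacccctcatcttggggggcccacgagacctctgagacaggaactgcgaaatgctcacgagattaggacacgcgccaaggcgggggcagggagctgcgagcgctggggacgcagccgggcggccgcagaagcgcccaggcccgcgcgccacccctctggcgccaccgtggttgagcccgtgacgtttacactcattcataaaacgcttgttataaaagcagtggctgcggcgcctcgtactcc
DUSP1: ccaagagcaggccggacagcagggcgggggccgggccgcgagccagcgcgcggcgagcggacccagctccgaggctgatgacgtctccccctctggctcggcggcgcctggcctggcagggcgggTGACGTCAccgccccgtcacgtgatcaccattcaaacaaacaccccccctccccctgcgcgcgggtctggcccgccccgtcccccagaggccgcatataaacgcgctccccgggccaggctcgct

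Several secreted proteins and enzymes were bright in ARP1 and near background in OCI-MY5. GNLY, granulysin, is a protein of the killing granules of T and NK cells, and it read 7024, 9517, 47.4 and 12.3. ARP1 was at least 127-fold higher (adjusted p = 0.044). CD3D, CD3E, CD3G and NKG7 read 105 or less on the same arrays, while ZAP70 was also higher in ARP1, with a difference of 2.77 (adjusted p = 0.0701). The part of other cells in these values was not tested. IGFBP7, a secreted binder of insulin-like growth factors, read 6858, 9881, 59.9 and 126 (difference 6.31 ± 0.19; adjusted p = 0.031). BMP4, a secreted ligand of the TGF-β family, read 678, 506, 19.3 and 11.9 and was at least 9.09-fold higher in ARP1. Neither line's arrays came near the other's in these 3 genes.

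Among enzymes and membrane proteins, ASS1, which makes argininosuccinate on the way to arginine, read 1984, 1552, 77.2 and 49.5 (difference 4.50 ± 0.17; adjusted p = 0.035). GLUL, glutamine synthetase, read 3325, 2936, 207 and 226, and its probe set difference was 3.75, or 2.19 as the mean over its probe sets. MB, myoglobin, an oxygen-binding protein of muscle, read 640 and 844 in ARP1 and 34.8 and 44.2 in OCI-MY5. PPIC, a cyclophilin of the secretory pathway, read 3542, 3469, 277 and 209. XYLT1, which starts glycosaminoglycan chains, read 721, 801, 6.58 and 5.68 on a probe set that can bind related transcripts. EMP1, a membrane protein, read 787, 904, 9.01 and 30.6 (adjusted p = 0.0387). Its 2 other bright probe sets also separated the lines in favour of ARP1. Without the CD24− array of ARP1 a further, dim probe set came out as the brightest of EMP1 and gave −0.52.

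Of 12 tested glucocorticoid response genes, 8 were higher in ARP1 without overlap, against 34.1% of all genes, and 2 in OCI-MY5. TSC22D3, the leucine zipper protein induced by glucocorticoids, read 3314, 3384, 57.4 and 106 (difference 5.15 ± 0.25; adjusted p = 0.0383), or 2.73 as the mean over its probe sets. The 2 called members were TSC22D3 and DUSP1, against 1.7% of all genes called higher in ARP1. The other 6 include RGS2, an inhibitor of G protein signalling, with 1298, 1799, 490 and 531, and SGK1, a kinase, with 901, 703, 320.3 and 283, neither called. The receptor itself, NR3C1, was bright in both lines, with 5405, 5549, 4286 and 4015. DDIT4, another response gene, stood the other way at −0.74. The list's median difference was 0.63.

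**Figure D3:**
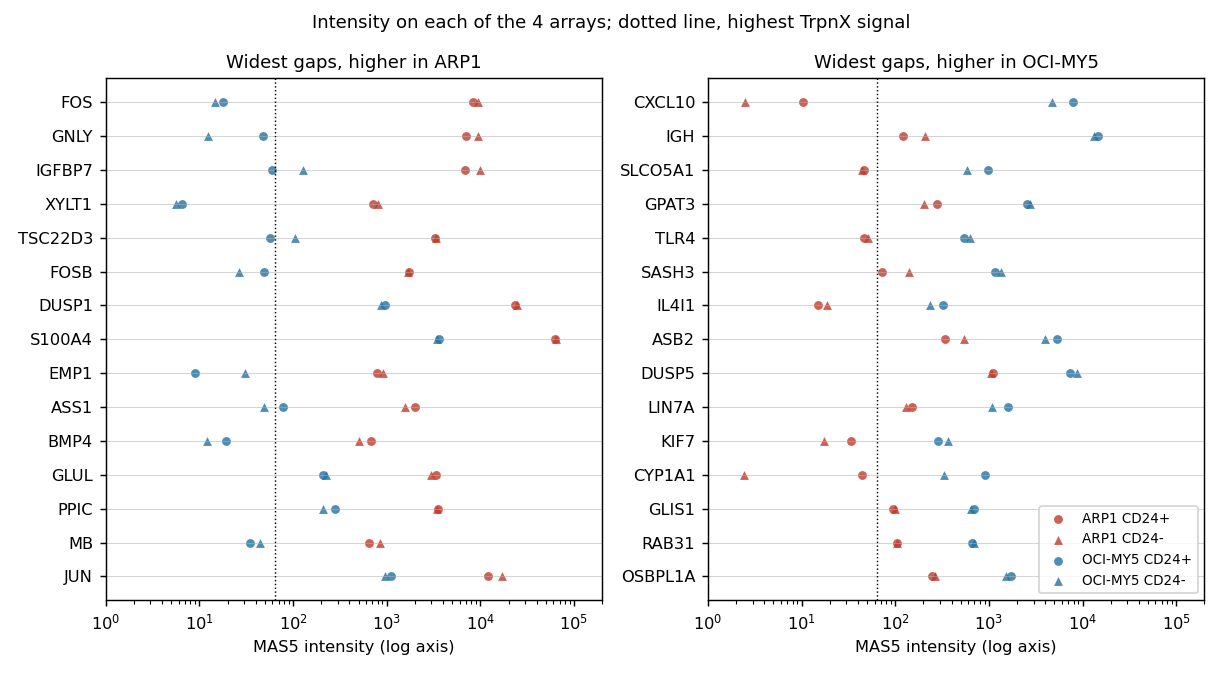
MAS5 intensity on each of the 4 arrays (log axis) for the 15 called genes with the widest gap between the lines in each direction; red, ARP1; blue, OCI-MY5; circles, CD24+; triangles, CD24−; dotted line, the highest TrpnX signal of 64.5. The 2 colours stay apart in every row, as the selection required. FOS, CXCL10 and GNLY are among several genes that lie within the TrpnX range in the lower line.

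Several genes of the S100 family were called higher in ARP1, and those named here are the called ones. S100A4, a small calcium sensor linked to cell motility, read 62751, 64000, 3623 and 3452 (difference 4.16 ± 0.17; adjusted p = 0.035). S100A6 read 25122, 26518, 4600.3 and 4543, and S100A10, the partner of annexin A2, read 20160, 18780, 3785 and 3619. S100A2 was dim, with 217, 151, 34.1 and 12.0. Of 21 tested genes on the list of S100 proteins and annexins, 6 were called and all 6 were higher in ARP1, against 1.7% of all genes. Without overlap 13 were higher in ARP1 and 4 in OCI-MY5, where the shares of all genes were 34.1% and 30.2%. The remaining called members were ANXA6, with 2865, 3442, 816 and 1097, and LMNA, with 5685, 4925, 1712 and 1218. LMNA, the nuclear lamin, is on the list but is neither an S100 protein nor an annexin. For ANXA6 the difference was 1.71 on this probe set and 0.83 as the mean over its probe sets. ANXA1 and ANXA7 were not called and were lower in ARP1, at −0.96 and −0.99. The list's median was 0.48.

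The widest gap in favour of OCI-MY5 was in CXCL10, a chemokine induced by interferon that attracts T cells. It read 10.2 and 2.49 in ARP1, within the TrpnX range, and 7960 and 4757 in OCI-MY5. OCI-MY5 was at least 95.4-fold higher (difference −8.13 ± 0.18; adjusted p = 0.0148). IFIT3, an antiviral protein induced by interferon, read 92.8, 72.3, 895 and 539 (difference −2.86 ± 0.20; adjusted p = 0.044). The interferon list as a whole did not go this way. Of its 22 tested genes, 2 were called higher in OCI-MY5 and 1 in ARP1, against 0.728% and 1.7% of all genes. The 1 in ARP1 was IFITM1, a membrane protein that blocks virus entry, with 5950, 6869, 995 and 1174 (difference 2.55 ± 0.17; adjusted p = 0.044). Its relatives IFITM2 and IFITM3 were not called, at 2.07 and 3.31; IFITM3 read 835, 888, 136 and 35.3. The list's median was −0.14. ISG15 was at 0.68 and OAS1, OAS2 and OAS3 between −0.31 and −0.14, none of them called.

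The upstream windows of CXCL10 and IFIT3 are shown because both genes are known targets of interferon and are the 2 interferon genes called higher in OCI-MY5. They are RefSeq promoters of GRCh38.p14, 250 bases 5′ to 3′, at chr4:76023498-76023747 on the minus strand and chr10:89327747-89327996 on the plus strand. Capitals mark the interferon-stimulated response element (GAAA, any 2 bases, GAAA) and the NF-κB element (GGGA, any 2 bases, T, any base, CC), each searched on both strands. CXCL10 holds 1 response element, 221 to 212 bases before the start, and 2 NF-κB elements, at 177 to 168 and at 122 to 113 bases before it. IFIT3 holds 2 response elements, at 156 to 147 and at 122 to 113. The response element was found in 2.3% of the 9871 promoters of tested genes, in 8.22% of those of genes called higher in OCI-MY5, which is 6 of 73, and in 3.09% of those called higher in ARP1. For the NF-κB element the shares were 4.46%, 8.22% and 2.47%.
CXCL10: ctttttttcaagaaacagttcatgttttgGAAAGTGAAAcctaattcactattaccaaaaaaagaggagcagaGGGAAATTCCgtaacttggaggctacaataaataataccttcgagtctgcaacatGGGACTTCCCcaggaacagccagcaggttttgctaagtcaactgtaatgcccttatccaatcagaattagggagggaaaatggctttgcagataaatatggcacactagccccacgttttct
IFIT3: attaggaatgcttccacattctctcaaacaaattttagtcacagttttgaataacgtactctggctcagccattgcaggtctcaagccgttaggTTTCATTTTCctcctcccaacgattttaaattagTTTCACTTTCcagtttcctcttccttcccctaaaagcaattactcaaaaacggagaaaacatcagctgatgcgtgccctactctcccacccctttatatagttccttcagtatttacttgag

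Other innate and lymphoid genes were higher in OCI-MY5. TLR4, the receptor for bacterial lipopolysaccharide, read 46.2 and 51.0 in ARP1 and 548 and 622 in OCI-MY5, at least 9.05-fold higher there (adjusted p = 0.0387). Its probe set can bind related transcripts. IL4I1, a secreted amino acid oxidase of antigen-presenting cells, read 14.996, 18.9, 321 and 236. SASH3, a signalling adaptor of lymphocytes, read 72.2, 139, 1157 and 1355 (difference −3.44 ± 0.22; adjusted p = 0.044). NFKBIZ, an inducible nuclear regulator of NF-κB, read 289, 432, 2371 and 1924 and was called (difference −2.54 ± 0.28). On the NF-κB pathway list none of 23 tested genes was called in limma. At an unadjusted p under 0.05 there were 8 higher in OCI-MY5 and 2 in ARP1, and 13 were higher in OCI-MY5 without overlap against 3 in ARP1, with 30.2% and 34.1% of all genes doing so. TNFAIP3, the feedback inhibitor A20, had the widest gap, with 823, 844, 2019 and 1917 (difference −1.22; adjusted p = 0.0574). The list's median was −0.44.

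IGH, the immunoglobulin heavy chain locus, read 120, 209, 14727 and 13374 on its brightest probe set (difference −6.33 ± 0.28; adjusted p = 0.0357). The mean over its probe sets was smaller, at −1.57, and only 1 of its 2 other bright probe sets separated the lines in the same direction. Immunoglobulin probe sets can bind transcripts of related segments, so this value belongs to that probe set.

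The remaining genes with wide gaps towards OCI-MY5 have mixed roles. CYP1A1, a detoxifying oxidase induced through the aryl hydrocarbon receptor, read 44.5, 2.45, 909 and 335, at least 8.56-fold higher in OCI-MY5. GPAT3, an enzyme of triglyceride synthesis, read 277, 202, 2557 and 2761 (difference −3.40 ± 0.22; adjusted p = 0.044). ASB2, part of a ubiquitin ligase, read 339, 542, 5359 and 3974. SLCO5A1, of the organic anion transporter family, read 46.1 and 44.2 against 985 and 578. LIN7A, a scaffold protein of cell polarity, read 151, 130, 1602 and 1074, and its 3 other probe sets separated the lines the same way. KIF7, a kinesin of Hedgehog signalling, read 33.6, 17.4, 288 and 368, at least 5.04-fold higher in OCI-MY5. RAB31, a regulator of vesicle transport, read 104, 105, 655 and 699.6. OSBPL1A, a sterol-binding protein, read 244, 265, 1724 and 1531.

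Plasma cell genes leaned to ARP1 while both lines expressed them. TNFRSF17, which codes for BCMA, read 11584, 11033, 4104 and 3885 (difference 1.498 ± 0.17; adjusted p = 0.0497). POU2AF1, a B lineage coactivator, read 4702, 4211, 1234 and 1308. These were the 2 called of 23 tested plasma cell genes, against 1.7% of all genes called in that direction. Without overlap 12 were higher in ARP1 and 6 in OCI-MY5, where the shares of all genes were 34.1% and 30.2%. SDC1, which codes for the plasma cell marker CD138, read 6877, 6122, 2595 and 3156 and was not called (difference 1.18; adjusted p = 0.0678). PRDM1 and XBP1, which drive plasma cell differentiation, were at −0.23 and 0.03. The list's median was 0.37. Of 16 tested B cell genes 1 was called, ID3, an inhibitor of E proteins, with 1547, 1695, 8883 and 6351, higher in OCI-MY5 (difference −2.20 ± 0.23). Among all genes, 0.728% were called in that direction.

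Among 19 tested surface targets of myeloma therapy, 4 were called higher in ARP1 and 1 in OCI-MY5, against 1.7% and 0.728% of all genes. GPRC5D, an orphan receptor of plasma cells, read 3525, 3093, 187 and 428 (difference 3.47 ± 0.38; adjusted p = 0.0497). CXCR4, the receptor that homes plasma cells to bone marrow, read 5940, 4365, 596 and 585 (difference 3.07 ± 0.20; adjusted p = 0.044). IL6R, the receptor for a growth factor of myeloma, read 2556, 3213, 391 and 455 (difference 2.72 ± 0.17). CD44, the hyaluronan receptor, went the other way, with 2551, 2215, 15927 and 12132 (difference −2.54 ± 0.18; adjusted p = 0.044). All 8 of its other bright probe sets separated the lines in that direction, and the mean over its probe sets was smaller, at −1.33. CD38, the target of daratumumab, was not called, with 695, 741, 529 and 596. On the adhesion list 1 of 27 tested genes was called each way, CXCR4 and CD44, against the same 1.7% and 0.728% of all genes.

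On the list of IL6, JAK-STAT3 and PIM genes 1 of 21 tested members was called each way, IL21R and IL6R. Among all genes, 1.7% were called higher in ARP1 and 0.728% in OCI-MY5. Both receptors were above the TrpnX range in both lines. IL21R, the receptor for interleukin 21, read 145, 98.7, 889 and 628 and was higher in OCI-MY5 (difference −2.49 ± 0.17; adjusted p = 0.044), opposite to IL6R. Its 2 other probe sets went the same way. IL6ST, the signalling chain shared by interleukin 6 receptors, read 9178, 8623, 4366 and 4313, not called. MERTK, a receptor kinase that recognises dying cells, was higher in OCI-MY5 with 127, 88.1, 486 and 499, and EPHB1, an ephrin receptor, was higher in ARP1 with 354, 289, 103 and 80.0. FGFR3, the receptor activated by a translocation in some myelomas, was dim in both lines, with 150, 58.7, 383 and 362, and was not called (adjusted p = 0.0701). DEPTOR, an inhibitor of mTOR that is high in MAF myeloma, read 3145, 3796, 1020 and 990.2 (difference 1.77 ± 0.19; adjusted p = 0.0497). TLR4, higher in OCI-MY5, and DEPTOR, higher in ARP1, were the called members of 15 tested MAF targets. The shares of all genes called were 0.728% and 1.7%.

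Among survival genes both called members were higher in OCI-MY5, and they have opposite roles. BCL2, which blocks apoptosis, read 521, 459, 2392 and 1902 (difference −2.09 ± 0.17; adjusted p = 0.0457), or −0.73 as the mean over its probe sets. Its 2 other bright probe sets did not separate the lines. BMF, a BH3-only protein that promotes apoptosis, read 200.6, 122, 1478 and 812 (difference −2.68 ± 0.18; adjusted p = 0.044). MCL1, the survival protein on which many myeloma cells depend, was bright in both, with 20121, 22762, 15888 and 14018, and was not called. Of 23 tested genes on this list the other 21 were not called. Its median was −0.04, or 0.23 when each gene was averaged over its probe sets. Among all genes, 0.728% were called higher in OCI-MY5.

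Cell cycle regulators differed gene by gene. CDKN1A, the p21 inhibitor of cyclin-dependent kinases and a p53 target, read 285 and 261 in ARP1 and 26.8 and 44.9 in OCI-MY5, at least 4.22-fold higher in ARP1 (adjusted p = 0.0478). CDK6, a partner of D cyclins, read 4623, 5147, 14420 and 14625 (difference −1.57 ± 0.17), and 5 of its 5 other bright probe sets agreed in direction without overlap. MYCN, a paralog of MYC, read 843, 1068, 130 and 203 and was called, while its 9 other probe sets were too dim to test. MYC read 24695, 20759, 31794 and 30887, and CRBN, the target of thalidomide drugs, read 1599, 1386, 1456 and 1566; neither was called. The list of 33 genes of G2 and mitosis had a median of 0.01 and no calls in limma, with 3 members higher in ARP1 and 4 in OCI-MY5 at an unadjusted p under 0.05.

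NQO1, GCLM and HMOX1, known as targets of NRF2, were called higher in OCI-MY5. NQO1, a quinone reductase, read 422, 451, 2126 and 2327 (difference −2.31 ± 0.17; adjusted p = 0.044), and both of its other probe sets went the same way. GCLM, a subunit of the enzyme that limits glutathione synthesis, read 459, 690.1, 1557 and 1971, and HMOX1, which degrades heme, read 539, 375, 1492 and 1071; their differences were −1.61 and −1.46. Other known targets were not called: TXNRD1 differed by −0.03 and SRXN1 by −0.31. The antioxidant response element TGACNNNGC was found in 12.3% of promoters of tested genes, in 8.22% of those of genes called higher in OCI-MY5 and in 11.7% of those called higher in ARP1. On the list of 35 tested drug efflux and glutathione genes, 3 were called higher in OCI-MY5 and 2 in ARP1, against 0.728% and 1.7% of all genes. Those of ARP1 were ABCG1, a sterol exporter, with 310, 371, 50.8 and 45.8, and GSTT1, a glutathione transferase, with 495, 459, 162 and 132. ABCB1, the multidrug pump, stayed dim, with 64.9, 10.9, 139 and 236, and was not called.

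Some gene groups leaned as a whole with small differences and few or no calls in limma. Of 27 tested proteasome subunits, 24 were higher in OCI-MY5 without overlap and 2 in ARP1, with a median of −0.56. None was called, and 15 were higher in OCI-MY5 at an unadjusted p under 0.05. PSMA5 and PSMA1, subunits of the core ring, had the widest gaps: PSMA1 read 9188, 11576, 20732 and 22086 (difference −1.05; adjusted p = 0.0672). PSMB5, the subunit that bortezomib inhibits, was closer, with 4988, 4359, 5309 and 6096. Of 48 mitochondrial ribosomal proteins, 34 were higher in OCI-MY5 without overlap and 2 in ARP1, with a median of −0.39; none was called, and 20 and 1 had an unadjusted p under 0.05. Of 29 DNA replication genes the counts were 17 and 2, with a median of −0.27; MCM10, which loads replication factors, read 2932, 2771, 5965 and 6994. None of these was called, and 7 were higher in OCI-MY5 at an unadjusted p under 0.05. The background is 30.2% of all genes higher in OCI-MY5 without overlap and 31.7% with an unadjusted p under 0.05 in either direction.

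In the other direction stood antigen presentation, the endoplasmic reticulum and sterol synthesis. Of 18 genes of MHC class I and the immunoproteasome, 10 were higher in ARP1 without overlap, against 34.1% of all genes, and 2 in OCI-MY5. The median was 0.63, or 0.32 when each gene was averaged over its probe sets. None was called in limma, and 9 and 1 had an unadjusted p under 0.05. HLA-B read 38766, 30632, 21552 and 14893, and B2M differed by 0.03. ERAP2, a peptide-trimming enzyme, stood against the group with 637, 1072, 2096 and 2284. Of 29 unfolded protein response and ER folding genes, 18 were higher in ARP1 without overlap, against 34.1% of all genes, and 6 in OCI-MY5, with a median of 0.45. At an unadjusted p under 0.05 there were 8 and 1. The 1 call, where 1.7% of all genes were called higher in ARP1, was CRELD2, a stress-induced ER protein, with 10782, 9207, 2934 and 2867 (difference 1.77 ± 0.18). Of 21 sterol and fatty acid genes the counts were 12 and 2, with a median of 0.57, and INSIG1, the sterol sensor's partner, read 6183, 7716, 2468 and 2443. None of these was called, and 10 and 1 had an unadjusted p under 0.05. Cytosolic ribosomal proteins were level, with a median of 0.02 over 34 genes. Of the list medians given here, those of cytosolic ribosomal proteins and of G2 and mitosis turned under centring, to −0.11 each. The others kept their sign after quantile normalization and after centring, though not their size. Averaging each gene over its probe sets turned the median of the BCL2 family from −0.04 to 0.23. It brought that of interferon genes from −0.14 to −0.04.

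**Figure D4:**
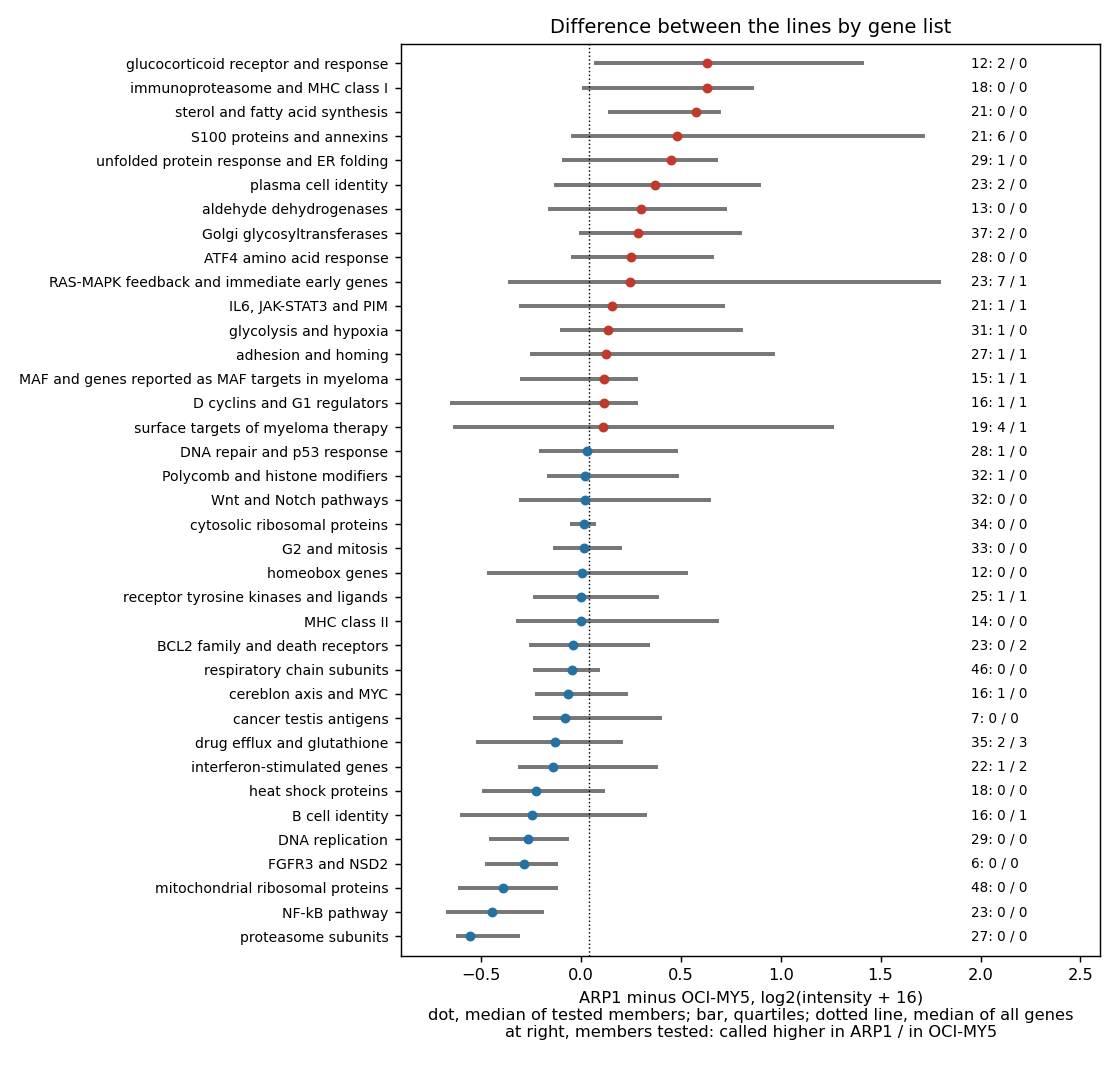
Median difference, ARP1 minus OCI-MY5 in log2(intensity + 16), with quartiles over the tested members of each gene list with at least 5 of them, other than lists of other cell types; the dotted line is the median of all genes, 0.04. Medians run from −0.56 for proteasome subunits to 0.63 for glucocorticoid response and MHC class I genes, and the lists with most calls, immediate early genes and S100 proteins, have wide quartiles.

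The difference between the lines was measured once in CD24+ and once in CD24− cells, on separate arrays. Of all genes, 73.9% had the same sign in both, and the 2 differences correlated at r = 0.65 and rho = 0.63 over the genes, a description since genes are no replicates. A difference of 2-fold or more was found for 1742 genes within CD24+ and 1844 within CD24−. Of these, 870 were so in both in the same direction, which is 49.9% of the first set and 47.2% of the second, and 28 were in opposite directions. Between arrays, r across genes was 0.98 within ARP1 and within OCI-MY5, and 0.93 to 0.94 between these 2 lines. Against the OPM2 arrays it was 0.82 to 0.86, and between the 2 OPM2 arrays 0.94. The genes and probe sets used were picked on the ARP1 and OCI-MY5 arrays alone, so values with OPM2 are not like for like.

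A second bright probe set, which samples another stretch of a transcript, gave a further look at 5923 genes, where the 3′ over 5′ control ratios differ between the lines. The sign was the same for 70.6% of them (r = 0.61 across genes). Of the called genes with such a probe set, the second also separated the lines in the same direction for 88 of 97 higher in ARP1 and for 34 of 41 higher in OCI-MY5. Among all called genes, 14 were on probe sets marked x_at, which can bind related transcripts. JUN, TLR4, GLIS1, XYLT1 and ZNF587B are among them, and PSMA1, not called, was on such a probe set too.

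Neighbouring genes differed together in some stretches of the genome. Medians were taken over 25 consecutive tested genes in the gene order of GRCh38.p14. Over all 11504 such windows the 5th and 95th percentiles were −0.44 and 0.34. The windows described were picked for the highest or lowest medians, so many genes in 1 direction follow from that choice. The highest window, 1.06, ran from CYB5R3 to GTSE1-DT on chromosome 22, where 24 of 25 genes were higher in ARP1. Of these 21 did not overlap, where the share higher in ARP1 was 34.1% of all genes and 51.8% on chromosome 22. Among them FAM118A read 1875, 1810, 406 and 323 and ARFGAP3, a regulator of Golgi transport, read 4222, 4779, 1572 and 1492. The exception was BIK, a BH3-only protein, with 346, 324, 504 and 438. The stretch that follows, GTSE1 to NCAPH2, had a median of 0.62 and holds GRAMD4 and CRELD2. On chromosome X, MED14 to ZNF630 had a median of 0.61, and TIMP1, an inhibitor of matrix proteases, read 13565, 13930, 4355 and 4661 there. VAV2 to AGPAT2 on chromosome 9 had 0.61.

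Towards OCI-MY5, the lowest window was ZNF582 to ZNF606 on chromosome 19, mostly a cluster of KRAB zinc finger genes, with a median of −1.06 and 22 of 25 genes in that direction. ZNF587B read 509, 584, 2421 and 2256 (difference −2.07 ± 0.18) on a probe set that can bind related transcripts. On chromosome 10, FAS to ALDH18A1 had a median of −0.87 and holds IFIT3, and DUSP5 to CACUL1 had −0.83. CC2D1B to TTC4 on chromosome 1 had −0.85, with 24 of 25 genes higher in OCI-MY5, among them GLIS1 with 95.1, 99.9, 699 and 651 and SSBP3 with 387, 393, 1074 and 1197. Among all genes, 34.1% were higher in ARP1 without overlap and 30.2% in OCI-MY5. The stretches, all picked by their medians, differed in how uniform they were. That of IFIT3 had 19 of 25 genes higher in OCI-MY5 and 5 higher in ARP1 without overlap, and that of CRELD2 had 18 of 25 higher in ARP1 and 4 higher in OCI-MY5 without overlap. That of DUSP5 had 24 of 25 in 1 direction.

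Some whole chromosomes leaned as well. On chromosome 10 the median difference over 456 genes was −0.43, with 60.1% of genes higher in OCI-MY5 without overlap and 16.9% in ARP1. Chromosome 18 had −0.36 over 169 genes. On chromosome 22 the median was 0.31 over 299 genes, with 51.8% higher in ARP1 and 13.04% in OCI-MY5, and chromosomes X and 21 had 0.26 and 0.22. Chromosome 19, with its low window, had a median of 0.08 over all 809 genes. DNA copy number was not measured, and its part in these stretches was not tested.

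**Figure D5:**
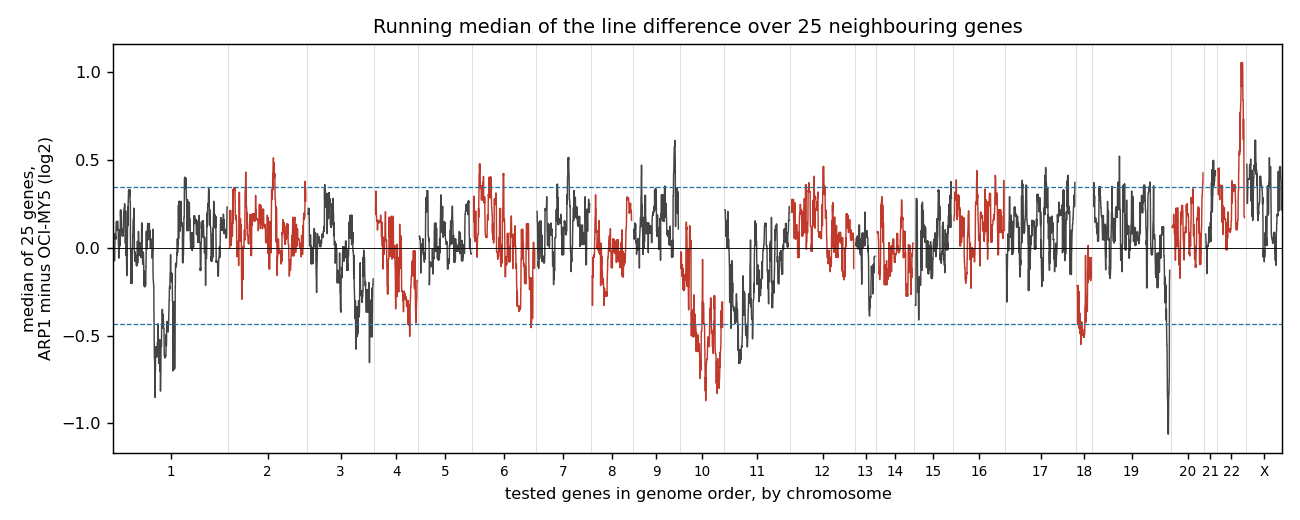
Median difference over 25 neighbouring tested genes, ARP1 minus OCI-MY5 (log2), along the gene order of each chromosome; dashed lines, the 5th and 95th percentiles of all windows, −0.44 and 0.34. Long dips towards OCI-MY5 are seen on chromosomes 1 and 10 and a sharp one at the end of 19, and the highest peak towards ARP1, 1.06, is on chromosome 22.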

How the data were processed

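RNA of sorted cells was hybridised to 1 array per line and fraction, per the labels' protocols. The authors deposited MAS5 intensity values on a linear scale, made with Affymetrix Expression Console 1.1 per the submitters' processing notes. Of 54675 probe sets, 62 controls were left out of the gene tests and 41091 had 1 gene symbol, 1801 several and 11721 none; only the first kind was named, updated through the RefSeq gene table of GRCh38.p14, in which 41037 matched. A gene was represented by its brightest probe set over the 4 arrays, and 12083 of 19775 genes were tested, those whose mean log2(intensity + 16) reached 6.28, the median over probe sets. Cell line was tested in limma 3.58.1 (R 4.3.3; lmFit, eBayes, two-sided) with the CD24 fraction as a term, checked on simulated data. Depth does not apply to arrays.

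Genes named were, of those called, the 15 with the widest gap each way; from each of 42 lists (1169 genes, 856 tested) up to 4 called members, or 2 where none was called; and 3 called members per window. Other list members, NFKBIZ and some window genes were named after their values were seen. The comparison and the lists were chosen with earlier results of these data known. Promoter windows were matched to 9871 genes. Alternatives were other pseudocounts, filters, scalings, probe set rules and models, and leaving out arrays.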

Additional observations from a re-analysis of the deposited data

Results flagged for a closer look

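For 11 gene lists the median difference between the lines had opposite signs in the 2 fractions. The difference between fractions was not tested. Medians were above 0 in CD24+ and below 0 in CD24− cells for MAF targets (0.18 and −0.09) and G2 and mitosis (0.22 and −0.23). So they were for cytosolic ribosomal proteins (0.063 and −0.05) and the list of 6 tested genes named for FGFR3 and NSD2 (0.078 and −0.63). The same held for respiratory chain subunits (0.00022 and −0.08), Polycomb and histone modifiers (0.12 and −0.06) and receptor tyrosine kinases (0.033 and −0.08). Medians were below 0 in CD24+ and above 0 in CD24− cells for D cyclins and G1 regulators (−0.065 and 0.18). MHC class II (−0.14 and 0.22), the BCL2 family (−0.14 and 0.04) and cancer testis antigens (−0.079 and 0.10) stood the same way.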

How the results depend on the processing

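All 70 named genes that were called kept their direction under every alternative in which they were tested, apart from EMP1. Its difference ran from −0.52 to 5.10 over the fits that leave out 1 array. Called genes had been chosen as not overlapping, so leaving out 1 array cannot turn them on the same probe set. The number of calls moved widely, here as higher in ARP1 and higher in OCI-MY5, against 206 and 88. It was 0 and 0 with a pseudocount of 1 and 0 and 0 with no filter on dim genes, where 3644 and 3074 genes had an unadjusted p under 0.05. It was 1377 and 891 with a pseudocount of 64, 1561 and 1601 with the filter at the 75th percentile, 2107 and 1941 with an intensity trend, and 704 and 479 with no CD24 fraction term. It was 56 and 26 after quantile normalization, 1 and 1 after centring, and 6 and 1 with all 6 arrays. Leaving out 1 array gave 0 to 352 and 0 to 51, and 0 and 0 without either ARP1 array.

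Genes at least 2-fold apart, 469 and 226, came to 765 and 404 with no filter, 228 with the 75th percentile filter in ARP1 and 143 with the mean of all probe sets in OCI-MY5. Leaving out 1 array gave 592 to 961 and 290 to 459. With a fold limit of 1.5 the counts were 1152 and 742, and with 4 they were 87 and 29. On the same probe set, leaving out 1 array can only keep or widen the gap between the lines. The higher 2-fold counts of those fits therefore follow largely from the definition. No cause of the other shifts was tested. Fits that leave out 1 array have no CD24 fraction term, so their calls stand beside the 704 and 479 without that term. A line left with 1 array in them is assumed to vary like the other.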

Other observations

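Further called genes outside the naming rule, picked after their values were seen, are given as values. NR4A2, an immediate early nuclear receptor, read 940.3, 828, 72.0 and 90.7 on a probe set that can bind related transcripts, and KLF2, a Krüppel-like factor of lymphocytes, read 9325, 8666, 1784 and 1855; both were higher in ARP1. Higher in OCI-MY5 were AIM2, a sensor of cytosolic DNA, with 93.9, 93.9, 598 and 525, and IL15, a cytokine of T and NK cells, with 176, 202, 873 and 703. MAP3K8, a kinase of inflammatory signalling, read 149, 191, 1348 and 962.

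The immunoglobulin chains did not lean one way. IGKC, the kappa light chain constant region, read 13368, 21079, 3750.1 and 3886 and was called higher in ARP1, with a difference of 2.13 (adjusted p = 0.0497), opposite to the heavy chain probe set. IGLC1, of the lambda light chain, read 25876, 23457, 19956 and 18815 and was not called.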
